A study of Mus musculus with 670 samples.

Results

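Genes of fat cell formation and lipid handling were followed in single skeletal cells of the mouse: Cebpa, Cebpb, Cebpd, Pparg, Medag, Lpl, Fabp4, Apoe, Plin2 and Adipoq. They are 10 rows, picked by name with earlier results of these data known, among the 55604 gene rows of the count table. Of the 10, 9 had a read in at least 1 cell that passed the filters, and all 10 had a read in at least 1 well. The data come from cells sorted straight from the long bones of untreated male mice, without culture, and sequenced by SmartSeq2, which reads whole transcripts from 1 cell per well. The sorted population carries the code ocSSC in the sample titles, and the labels give no strain, genotype or animal. Postnatal day 3 is plate 9, the age of 2 months is plates 1, 3 and 4, and the age of 24 months is plates 2, 5 and 12. The labels put plates 9, 2 and 12 in batch 3, plate 5 in batch 2, plate 1 in batch 4, plate 3 in batch 5 and plate 4 in batch 1, so the cells of 2 months share no batch with another age, and age and batch cannot be told apart in any comparison with them. Since no animal is named, each age is 1 sample, no p-value is given, and plates and cells describe the spread within that sample.

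Fat cells form in a known order. Cebpb and Cebpd, early transcription factors that also answer to hormones and stress, switch on Pparg and Cebpa, the pair of factors that fix the fat cell state. These in turn switch on genes such as Fabp4, a carrier of fatty acids inside the cell, Lpl, the enzyme that frees fatty acids from circulating lipoproteins, and Adipoq, the hormone adiponectin. In bone marrow, stromal cells that make the chemokine Cxcl12 and the leptin receptor Lepr also express several of these genes without storing fat. Medag promotes the maturation of fat cell precursors, Plin2 coats lipid droplets in many cell types, and Apoe carries lipids and is made by macrophages, liver and cartilage among other tissues.

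The results below turn mainly on Medag, Apoe and Adipoq, so the 120 bases upstream of their transcription starts are shown. The sequences are RefSeq promoter windows of GRCm38.p6, which were given for 7 of the 10 genes, and are written from 5′ to 3′ on the gene's strand. Capitals mark a CCAAT box, the element after which the C/EBP proteins were first named.
Medag, chr5:149411629-149411748, plus strand: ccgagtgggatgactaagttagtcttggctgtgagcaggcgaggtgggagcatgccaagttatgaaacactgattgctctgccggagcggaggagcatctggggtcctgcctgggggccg
Apoe, chr7:19699189-19699308, minus strand: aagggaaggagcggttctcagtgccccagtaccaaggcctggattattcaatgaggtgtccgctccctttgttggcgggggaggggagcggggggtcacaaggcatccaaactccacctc
Adipoq, chr16:23146416-23146535, plus strand: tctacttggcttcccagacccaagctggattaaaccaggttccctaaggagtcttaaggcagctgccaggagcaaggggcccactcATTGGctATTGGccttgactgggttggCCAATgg
Both strands of the 250 bases upstream of each start were searched for CCAAT, the C/EBP-type site TTGCNNAA, the TATA box TATAAA and the GC box GGGCGG. Adipoq held 3 CCAAT boxes and none of the other motifs, the C/EBP-type site included. At least 1 CCAAT box was found in 33.8% of all 32851 upstream windows, and the share with 3 was not counted. Medag and Apoe held none of the 4 motifs within these windows. Of the other windows, Cebpb held 5 GC boxes and Cebpa 1 TATA box. These motifs were found at least once in 32.7% and 12.4% of all windows. Plin2 held 1 CCAAT box and Pparg 1 GC box. A match or its lack describes these letters alone.

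Cells entered the comparisons if they had 1000 genes or more, 50000 reads of genes or more, and less than 20% mitochondrial reads. This left 68 cells of postnatal day 3 (plate 9), 15, 70 and 69 cells of 2 months (plates 1, 3 and 4) and 5 cells on each plate of 24 months, while 433 of 670 wells did not pass. The passing cells of 24 months had more reads and fewer genes than the others: their median was 2733865 gene reads, against 1100487 at postnatal day 3 and 677688 at 2 months, while the median number of genes per plate was 1096 to 1227 at 24 months, 1698 to 1777 at 2 months and 2234 at postnatal day 3. Cartilage genes moved with age too. Of 9 chondrocyte markers, 5 (Col9a1, Col9a2, Matn3, Cnmd and Hapln1) had no read at 24 months, and the summed level of the list was 2858 to 11599 CPM (a gene's reads scaled to the same total for every plate) per plate there, against 63428 to 84116 at 2 months and 77699 at postnatal day 3. The part of depth, gene number and cell makeup in the differences below was not tested. At 24 months none of 10 macrophage, 10 other blood cell and 8 endothelial markers had a read, and the plate sums of macrophage markers were at most 5.94 CPM at any age. Markers of pericytes and smooth muscle were read at every age. Their 6 genes summed to 763 CPM at postnatal day 3, with 1 cell at 57735 CPM, to 235.6 to 417 CPM per plate at 2 months and to 98.4 to 647 CPM at 24 months. The 8 fibroblast markers summed to 2836 CPM at postnatal day 3, 1552 to 5136 CPM at 2 months and 7449 to 18713 CPM at 24 months. In plates, as in bulk samples, fewer cells of a type and less RNA per cell cannot be told apart, so shares of cells are given beside levels.

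Between ages, Medag had its lowest mean at 2 months, while Cebpb, Cebpd and Apoe had theirs at postnatal day 3. The rule for calling a gene higher or lower asked for 10 CPM or more at the higher age, plate means at least 2-fold apart with 1 CPM added, and plates of the ages that do not overlap. At 24 against 2 months, 7 of the 10 genes reached 10 CPM. Of these, 1 was higher (Medag) and 0 were lower, where 1.54% and 29.6% of all genes compared were higher and lower. At postnatal day 3 against 2 months, 6 of the 10 genes reached 10 CPM, of which 2 were higher (Medag and Lpl) and 3 lower (Cebpb, Cebpd and Apoe), against 27.7% and 9.98% of all genes. At 24 months against postnatal day 3, 2 of 7 were higher (Cebpd and Medag) and 0 lower, against 2.59% and 53.6% of all genes. Both comparisons with 24 months tilted towards lower values over all genes, with medians of −1.56 and −1.94 on the log2 scale. This tilt depended on the cells used: the medians were −0.11 and −0.23 with cells of at least 500 genes, −0.02 and −0.16 with no cell filter, and −3.20 to −3.58 and −3.51 to −3.71 when 1 plate of 24 months was left out. Of the 10 genes, Medag, Lpl and Adipoq reached 10 CPM at 24 against 2 months only through 24 months, where they were higher, so the genes that reached it carry no evidence of a common direction. At postnatal day 3 against 2 months all genes had a median of 0.23. The comparisons share their samples in pairs and are not independent of each other.

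**Figure D1:**
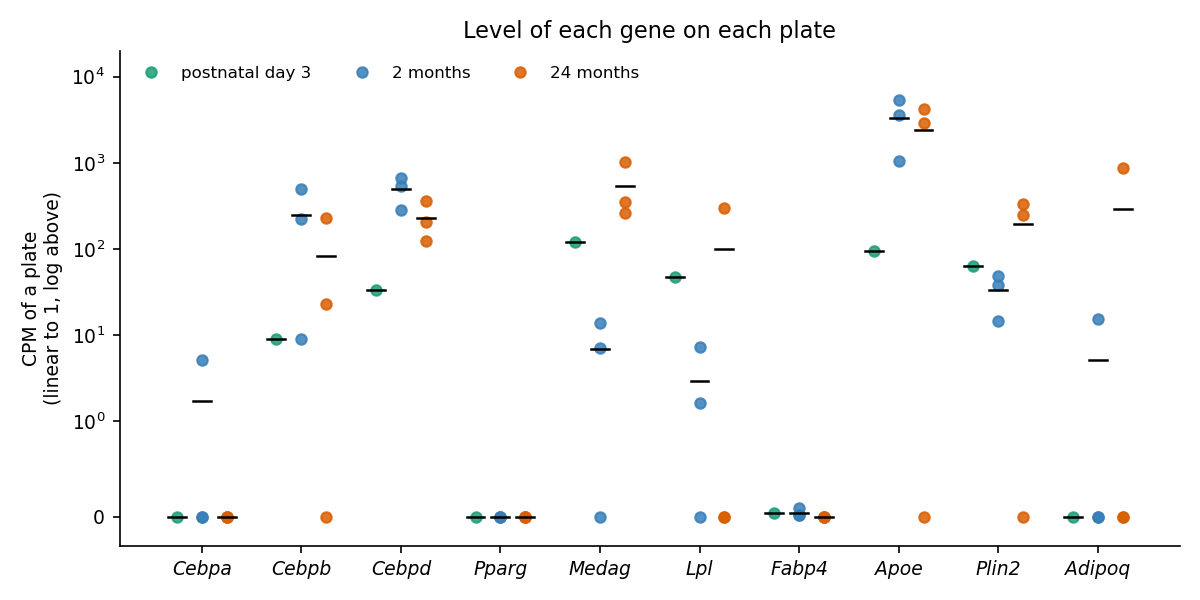
Level of the 10 genes (CPM of the summed passing cells, axis linear to 1 and logarithmic above) on each plate, with points coloured by age and a bar at the mean of an age's plates. Medag was lowest at 2 months and highest at 24 months, Apoe was at 95 CPM on the plate of postnatal day 3 and from 1057 to 5302 CPM on those of 2 months, and Pparg had no read in a passing cell.

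Cebpb (chromosome 2, 167688915 to 167690418, GENCODE annotation of GRCm38) and Cebpd (chromosome 16, 15887286 to 15891031) code for the early C/EBP factors. Cebpd stood at 33.6 CPM at postnatal day 3, at 285.3, 659 and 542 CPM on plates 1, 3 and 4 of 2 months, and at 364, 206.6 and 123.1 CPM on plates 2, 5 and 12 of 24 months. The day 3 plate was below every other plate. The log2 difference was −3.84 at postnatal day 3 against 2 months and 2.75 at 24 months against postnatal day 3. At 24 against 2 months it was −1.10, but plate 2 overlapped the lowest plate of 2 months, so the rule was not met. TMM scaling and leaving out plate 1 or plate 2 each ended that overlap.

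Cebpb stood at 8.91 CPM at postnatal day 3, at 9.02, 223.7 and 502 CPM on the 3 plates of 2 months, and at 0, 225.8 and 23.2 CPM on those of 24 months. The day 3 value was below all plates of 2 months, but plate 1 differed from it by less than the counting interval (7.77 to 10.4 CPM for plate 1). The log2 difference between these ages was −4.63. At 24 months all Cebpb reads came from 2 cells, and the plates overlapped those of 2 months and of postnatal day 3.

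The same pair differed in how many cells held a read. Cebpd was read in 12 of 68 cells at postnatal day 3 (17.6%, exact 95% binomial interval 9.47% to 28.8%). The age of 2 months had 69 cells with Cebpd (44.8%, 36.8% to 53%), and the age of 24 months 4 of 15 (26.7%, 7.79% to 55.1%). Cebpb was read in 3 cells at postnatal day 3 (4.41%, 0.919% to 12.4%), 52 at 2 months (33.8%, 26.4% to 41.8%) and 2 at 24 months (13.3%, 1.66% to 40.5%). For both genes the intervals of postnatal day 3 and of all cells of 2 months did not overlap. The intervals of 24 months overlapped that of 2 months. Plates 3 and 4 held Cebpd in 52.9% and 43.5% of cells and Cebpb in 32.9% and 40.6%. Plate 1 held Cebpd in 2 of 15 cells (13.3%, 1.66% to 40.5%) and Cebpb in 1 (6.67%, 0.169% to 31.9%). Both intervals of plate 1 overlapped those of postnatal day 3. These intervals cover counting error only, since PCR makes several reads from 1 molecule, and cells of a plate may share an animal. With cells thinned to 50000 reads drawn at random, the shares came 17.6% and 40.3% for Cebpd and 2.94% and 31.2% for Cebpb at the younger ages.

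Cebpb and Cebpd were often read in the same cells. On plate 3, 17 of the 23 cells with Cebpb also held Cebpd (73.9%), against 42.6% of the 47 cells without Cebpb. On plate 4 it was 16 of 28 (57.1%) against 34.1% of 41. Over the cells of a plate, which may share an animal and differ in depth, Spearman's rho between the levels was 0.25 on plate 3 and 0.20 on plate 4. The genes most like Cebpd over the cells of both plates were Btg2, a brake on cell division (rho 0.40), the co-chaperone Dnajb1 (0.38) and the nucleolar protein gene Nop58 (0.37), out of 5476 genes compared. Those most like Cebpb were Anxa1, a calcium-binding membrane protein (0.34), P4ha2, a collagen prolyl hydroxylase subunit (0.31), and Gm3226 (0.30). The levels of Cebpd and Cebpb themselves had rho of 0.22 and 0.15 with the number of genes per cell.

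The later factors were nearly absent. Pparg (chromosome 6, 115360951 to 115490399) had no read in any passing cell, so that the share of cells with a read could be up to 1.95% at 2 months, 4.41% at postnatal day 3 and 20% at 24 months by the share that 3 cells would make, or 2.37%, 5.28% and 21.8% by the exact 95% interval. It was read in 1 of all 670 wells, described further on. Cebpa (chromosome 7, 35119293 to 35121928) was read in 2 cells at 2 months (1.30%), both on plate 4, at 141.4 and 193.6 CPM. Both of these cells also held Cebpd and Apoe. No passing cell of the other ages held Cebpa. Fabp4 (chromosome 3, 10204088 to 10208576) reached at most 0.0970 CPM on any plate, with 4 cells at 2 months and 1 at postnatal day 3, and none of these 5 cells held more than 3 of its reads. Most fat cell markers outside the 10 genes were scarce too. Of a first list of 10, 9 had no read at 24 months, 8 none at postnatal day 3 and 4 none at 2 months, and the plate sums were at most 107.9 CPM. That highest value was Plin4, a droplet coat protein, in 1 cell of plate 12. Of 6 further genes in a wider list, Car3, a carbonic anhydrase abundant in fat and muscle, stood apart at 0.345 CPM at postnatal day 3, 519 CPM at 2 months (11 cells) and 1168 CPM at 24 months (4 cells), with plates of the adult ages from 4.56 to 1445 CPM and from 0 to 2742 CPM. Lipe reached 13 CPM at postnatal day 3, and the other 4 at most 4.93 CPM on any plate.

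**Figure D2:**
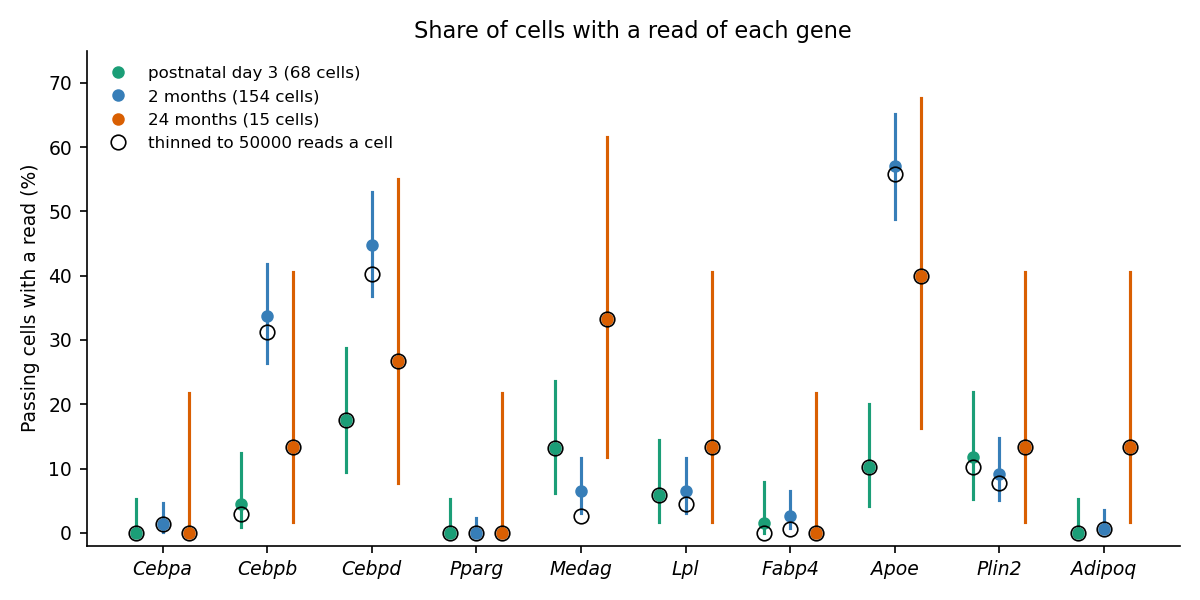
Percentage of passing cells with at least 1 read of each gene at each age, with exact 95% binomial intervals as lines and the share after thinning every cell to 50000 reads as open circles. Pooled over plates, Apoe, Cebpb and Cebpd were read in a larger share of cells at 2 months than at postnatal day 3, with intervals apart. On plate 1 alone, which is not drawn, their intervals overlap those of postnatal day 3. Every interval of the 15 cells of 24 months is wide.

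Medag (chromosome 5, 149411749 to 149431723) was the only gene of the 10 that met the rule in all 3 comparisons. Its calls with 24 months rest on few cells and depended on the cells used. Its level was 121.1 CPM at postnatal day 3, 0, 7.10 and 13.8 CPM on plates 1, 3 and 4 of 2 months, and 347, 262.3 and 1009 CPM on plates 2, 5 and 12 of 24 months. The plates of the 3 ages did not overlap among passing cells. The log2 difference was 6.08 at 24 against 2 months, 3.94 at postnatal day 3 against 2 months and 2.15 at 24 months against postnatal day 3. Within batch 3, which holds plates 2, 12 and 9, the last value was 2.47. The order of the oldest and the youngest age depended on the cells used. With cells of at least 500 genes, and with no cell filter, 24 months against postnatal day 3 no longer met the rule, at 0.69 and 0.53, while the differences from 2 months still met it.

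Medag was read in 9 of 68 cells at postnatal day 3 (13.2%, 6.23% to 23.6%), 10 at 2 months (6.49%, 3.16% to 11.6%) and 5 of 15 at 24 months (33.3%, 11.8% to 61.6%). Among cells of at least 500 genes the share at 24 months was 7.69% of 65 and that at postnatal day 3 12.5% of 72. The number of reads per cell set the ages further apart than these shares do. At 24 months the 5 cells held Medag at 972 to 2477 CPM, with a median of 1511, and at postnatal day 3 the 9 cells held it at up to 1452 CPM, with a median of 496. At 2 months the 10 cells had a median of 22.3 CPM, only 4 of them had 10 reads or more, and 2 cells, at 361 and 571 CPM, held nearly all of the reads. After thinning to 50000 reads, 4 cells of 2 months (2.60%) still held Medag, with no change at the other ages.

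The Medag result at 24 months rests on few cells, with 1 on plate 2, 1 on plate 5 and 3 on plate 12. Without the cell with the most Medag reads, plate 2 stood at 0 CPM and overlapped the younger ages, so that Medag no longer met the rule against either age, and the log2 differences were 5.74 and 1.80. Only 1 cell of 24 months had at least 2000 genes, and it held no Medag. None of the 5 cells held Apoe, Lpl, Adipoq or Plin2. Of the 5, 2 held both Cebpb and Cebpd, and 1 on plate 12 held Plin4. Their summed fibroblast markers (8 genes, among them Dpt, Dcn and Lum) ranged from 12 to 21455 CPM and their summed marrow stroma markers from 972 to 16428 CPM. At postnatal day 3, after thinning, 5 of the 13 cells with the stromal chemokine Cxcl12 held Medag (38.5%, 13.9% to 68.4%), against 4 of 55 without it (7.27%, 2.02% to 17.6%), intervals that overlap, and the sums were 324 and 64.2 CPM. At 2 months the levels lay the other way. Plate 3 had Medag in 1 of 12 cells with Cxcl12 and 1 of 58 without, at 0.143 and 8.08 CPM, and plate 4 in 0 of 10 and 2 of 59, at 0.401 and 16.3 CPM over all reads. Of the 9 Medag cells of postnatal day 3, 3 also held Plin2, and of the 10 of 2 months 0 did.

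Apoe (chromosome 7, 19696109 to 19699188, minus strand) had the highest level of the 10 genes per kilobase of exon at each age, at 1552 CPM per kb at 2 months, 1110 at 24 months and 44.4 at postnatal day 3. By plate, Apoe stood at 95 CPM at postnatal day 3, at 1057, 3596 and 5302 CPM on the plates of 2 months, and at 4244, 2874 and 0 CPM on those of 24 months. The day 3 plate was below all plates of 2 months, by −5.11 on the log2 scale. At 24 months plates 2 and 5 were within the range of 2 months and plate 12 had no read in its 5 passing cells, so the rule was met against neither age. Without plate 12 the difference from postnatal day 3 met it, with a log2 value of 5.21, and it also met the rule with cells of at least 500 genes or no cell filter.

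Apoe was read in 7 of 68 cells at postnatal day 3 (10.3%, 4.24% to 20.1%), 88 at 2 months (57.1%, 48.9% to 65.1%) and 6 of 15 at 24 months (40%, 16.3% to 67.7%). Plates 3 and 4 of 2 months held Apoe in 65.7% and 55.1% of cells. Plate 1 held it in 4 of 15 (26.7%, 7.79% to 55.1%), an interval that overlapped that of postnatal day 3. The cells with Apoe differed in level as well, with medians of 466 CPM at postnatal day 3, 4017 CPM at 2 months and 3657 CPM at 24 months. A single cell of 24 months, on plate 2 and at 19697 CPM, held 57.2% of the Apoe reads of its age. At 2 months the top cell held 6.15%.

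At 2 months Apoe was read in a larger share of the cells with the cartilage gene Cnmd than of those without it. In cells thinned to 50000 reads, 71.2% of the 52 cells of plate 3 with Cnmd, which codes for the cartilage protein chondromodulin, held Apoe (56.9% to 82.9%), against 44.4% of 18 cells without Cnmd (21.5% to 69.2%). On plate 4 the shares were 64.2% of 53 (49.8% to 76.9%) and 18.8% of 16 (4.05% to 45.6%). The intervals overlapped on plate 3 and not on plate 4. The summed level of Apoe differed between these cells on plate 4, at 6304 against 988 CPM, and hardly on plate 3, at 3615 against 3535 CPM. Cells with Cnmd also had more genes, with a median of 1886 against 1378 on plate 3 and 1823 against 1373 on plate 4, and the part of this in the shares was not tested. At postnatal day 3, 6 of 42 cells with Cnmd and 1 of 26 without held Apoe. In thinned cells of 2 months with and without Cxcl12, the Apoe shares were 50% and 67.2% on plate 3, and 70% and 50.8% on plate 4. With and without the osteoblast gene Bglap they were 46.2% and 68.4% on plate 3, and 38.9% and 58.8% on plate 4. Within each plate the intervals of these 2 splits overlapped. For Cebpb and Cebpd the intervals of the cells with and without Cnmd overlapped on all 3 plates.

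**Figure D3:**
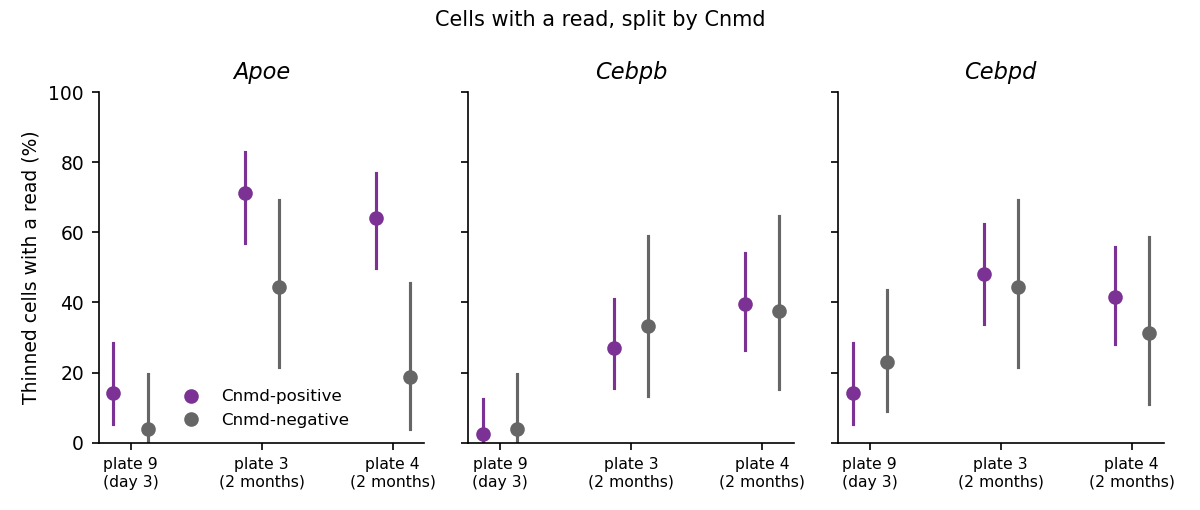
Percentage of cells, each thinned to 50000 reads, with a read of Apoe, Cebpb or Cebpd among Cnmd-positive (purple) and Cnmd-negative (grey) cells of plates 9, 3 and 4, with exact 95% binomial intervals. For Apoe the intervals lie apart on plate 4, at 64.2% and 18.8%, and for Cebpb and Cebpd they overlap on each plate.

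The genes most like Apoe over the cells of plates 3 and 4 were Cst3, a secreted protease inhibitor, with a rho of 0.53, Wif1, a secreted Wnt inhibitor, with 0.43, and Igfbp7, which binds insulin-like growth factors, with 0.38. For Wif1 the value was 0.33 on plate 3 and 0.57 on plate 4, and for Igfbp7 0.23 and 0.50. Apoe had a rho of −0.09 with the number of genes per cell.

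Plin2 (chromosome 4, 86648386 to 86670060, minus strand) stood at 63.2 CPM at postnatal day 3, at 14.5, 37.8 and 48.9 CPM on the plates of 2 months, and at 0, 333 and 246.6 CPM on those of 24 months. Plate 2 held no read, so the ages overlapped. Without plate 2, Plin2 met the rule as higher at 24 months against both younger ages. It was read in 8, 14 and 2 cells of these ages, and its 2 cells of 24 months, at 1815 and 1204 CPM, held none of the other 9 genes.

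Lpl (chromosome 8 of the mouse, 68880491 to 68907448) stood at 47.8 CPM at postnatal day 3 and at 0, 7.26 and 1.64 CPM at 2 months, a log2 difference of 3.62. At 24 months it stood at 300 CPM on plate 2 and at 0 CPM on plates 5 and 12. It was read in 4, 10 and 2 cells of these ages. Of the reads of 24 months, 99.7% came from 1 cell at 1414 CPM, and without that cell the log2 difference from 2 months turned from 4.67 to −1.59 and that from postnatal day 3 from 1.05 to −5.21. At postnatal day 3 the top cell held 66.7% of the reads, and without it Lpl still met the rule, at 2.13.

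Adipoq (chromosome 16, 23146536 to 23158028) was read in 3 passing cells. There was no read at postnatal day 3, 15.3 CPM on plate 3 alone at 2 months, from 1 cell at 2272 CPM, and 877 CPM on plate 2 alone at 24 months, from 2 cells at 1689 and 2822 CPM. The plates overlapped in each comparison. Both cells of 24 months also held Lpl and Apoe, at 4.58 and 19697 CPM in the first and 1414 and 4397 CPM in the second, and the first held Cebpd at 465 CPM.

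**Figure D4:**
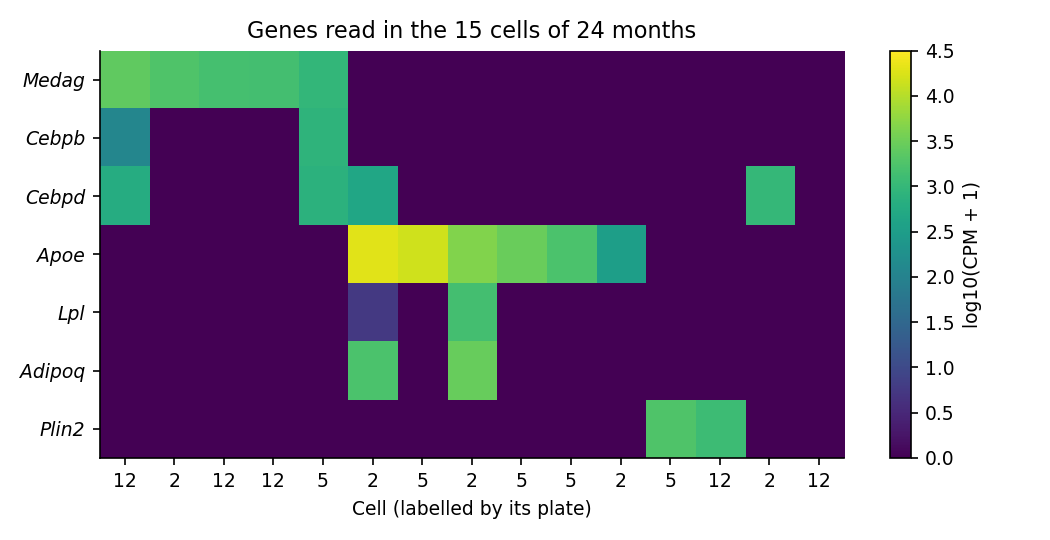
Level (log10 of CPM + 1) of the 7 genes with a read at 24 months in each of the 15 passing cells, in columns labelled by plate. The 5 cells with Medag and the 6 with Apoe are different cells, both cells with Adipoq are Apoe cells with Lpl, and the 2 Plin2 cells hold none of the other genes.

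At 24 months 5 cells held Medag, 6 held Apoe and none held both. Of the 5 Medag cells, 3 were on plate 12, where no passing cell held Apoe. Whether these are separate kinds of cells was not tested. At 2 months, 5 of the 10 Medag cells held Apoe, and 1 of 9 did at postnatal day 3. At least 1 of the 10 genes was read in 33 of 68 cells at postnatal day 3 (48.5%), 87.7% of the cells of 2 months and 14 of 15 at 24 months (93.3%). At least 3 were read in 2.94%, 21.4% and 26.7% of cells, and no cell held 5.

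The Adipoq and Pparg reads lay in wells with high sums of marrow stroma markers, of which Cxcl12 was often the largest part. Since most wells of 24 months did not pass the filter, wells with at least 500 genes, and otherwise the same limits, were examined as well: 72 on plate 9, 30, 78 and 76 on plates 1, 3 and 4, and 21, 18 and 26 on plates 2, 5 and 12. Adipoq was read in 8 wells in all, 7 of them of 24 months (3 on plate 2, 1 on plate 5 and 3 on plate 12) and 1 of 2 months. All 8 held Apoe, at 2268 to 31692 CPM, and Cxcl12, at 10357 to 70211 CPM. The summed level of 10 marrow stroma markers (Cxcl12, Lepr, Kitl, Ebf1, Ebf3, Foxc1, Hp, Esm1, Gas6 and Vcam1) was 31030 to 79208 CPM in these wells. Cxcl12 made up 70211 of 79208 CPM in the well with the highest sum, and 11826 of 31030 CPM in that with the lowest. Lepr itself was at 0 to 87.5 CPM in 4 of the 8 and at 1510 to 5653 CPM in the other 4. Osteoblast markers were read in all 8 as well, with sums of 2496 to 32316 CPM, which in 2 wells were about as high as the marrow stroma sum (32316 beside 32458 CPM and 31146 beside 31030 CPM).

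The single Pparg well had the same character. It was a well of plate 1 at 2 months with 924 genes, which did not pass, and it held 7269 Pparg reads (3316 CPM), 25226 CPM of Cxcl12 and 34597 CPM of marrow stroma markers in sum. It also held Cebpd at 1585 CPM, Apoe at 3192 CPM, Cebpb at 183.4 CPM and Lpl at 16.9 CPM, and no Adipoq or Lepr. Cebpa was read in 1 of the Adipoq wells, on plate 2, at 1147 CPM, and in a further well of plate 1 at 1029 CPM whose marrow stroma sum was 28243 CPM, mostly Lepr at 19330 CPM.

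A marrow stroma sum of at least 31030 CPM, the lowest among the Adipoq wells and so a limit set after they had been seen, was reached by 4 further wells: the Pparg well, 1 well of plate 5 and 2 of plate 12. All 4 held Apoe, at 3192, 8791, 13967 and 23904 CPM, where 37.5% of the 309 wells under the limit held it. By age, that share was 52.2% at 2 months, 25.5% at 24 months and 9.72% at postnatal day 3, an age with no well over the limit. None of the 12 wells over the limit held Medag, against 25 of 309 (8.09%, 5.30% to 11.7%), and the exact interval for 0 of 12 reaches 26.5%. Lpl was read in 5 of the 10 wells over the limit at 24 months and in 1 of the other 55, but at unlike levels. The 5 wells had 0.318, 0.716, 4.58, 130.8 and 1414 CPM, the first 2 of these from 1 read each, and the well under the limit had 921 CPM. The wells over the limit had few genes, with a median of 643 at 24 months, against 733 in the other wells of that age. As a list, marrow stroma markers summed to 4989 to 26150 CPM per plate at 24 months, to 53.3 to 544 CPM at 2 months and to 577 CPM at postnatal day 3, with 9, 9 and 6 of 10 markers read. Esm1 was at 0 at both adult ages, and Lepr, Hp, Esm1 and Vcam1 at postnatal day 3.

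**Figure D5:**
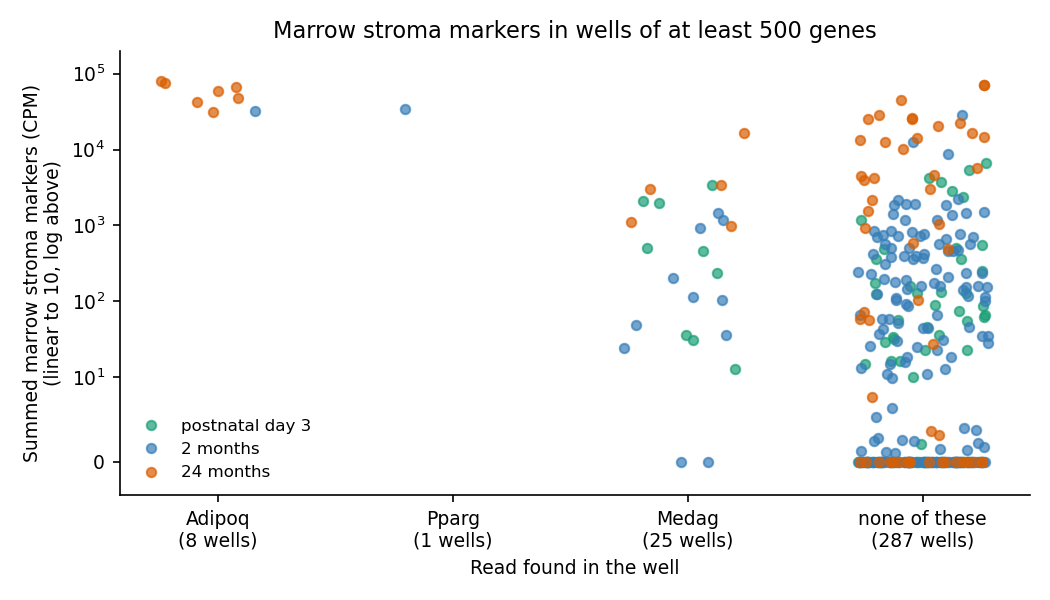
Summed level of 10 marrow stroma markers (CPM, axis linear to 10 and logarithmic above) in wells with at least 500 genes, grouped by whether Adipoq, else Pparg, else Medag was read, and coloured by age. The 8 Adipoq wells lie between 31030 and 79208 CPM, and the 25 Medag wells lie between 0 and 16428 CPM.

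Around these 10 genes, lists of further genes of the same processes were counted. At 24 against 2 months no gene of the 6 lists was higher by the rule, and the counts of lower genes stand beside 29.6% lower among all genes. Of 32 adipogenic regulators, 23 reached 10 CPM and 6 were lower, among them Stat5a, a signal transducer (0.0591 against 202.8 CPM), Klf15, which aids fat cell maturation (0 against 44 CPM), Srebf2, the main regulator of cholesterol genes (0.0295 against 41.6 CPM), and Zfp423, a factor of fat cell commitment (0 against 39.5 CPM). Of genes of lipid uptake and carriage, 6 of 15 were lower, among them the lipoprotein receptor gene Scarb1 (133.7 CPM at 2 months), the transporter gene Slc27a3 (145.9 CPM) and the lipocalin gene Apod (107.7 CPM), all 3 without a read at 24 months. Genes of droplets and lipolysis counted 2 of 7 lower, Faf2 and the monoglyceride lipase gene Mgll. The shares of regulators (26.1%) and droplet genes (28.6%) were near that of all genes. With cells of at least 500 genes, a setting added for the lists after seeing the data, 17.5% of all genes were lower, and 2 of 23 regulators, 4 of 16 genes of uptake and 1 of 7 droplet genes.

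The synthesis lists had the lowest medians at 24 against 2 months. Of fatty acid and triglyceride synthesis genes, 8 of 14 were lower (57.1%, against 29.6% of all genes), with a median log2 difference of −3.91, where all genes had −1.56. Of the 14, 6 had no read at 24 months, and with these set to the level that 3 reads over the age would give, without the added CPM, the median was −4.21 and that of all genes still −1.56. The stearoyl-CoA desaturase genes Scd1 and Scd2 had 265.8 and 360 CPM at 2 months, and 0 and 12.4 CPM at 24 months, and the elongase genes Elovl6 and Elovl5 had no read at 24 months. Of cholesterol synthesis genes, 8 of 15 were lower (53.3%), with a median of −5.01, or −8.74 with the 10 genes without a read at 24 months set to that level. They include Fdps (282.4 CPM at 2 months), Lss (172.5 CPM) and Sqle (80.2 CPM), enzymes of the sterol pathway with no read at 24 months, and Insig1, a brake on sterol synthesis (2.25 against 194.9 CPM). With cells of at least 500 genes, 6 of 14 fatty acid and triglyceride genes were lower and 1 higher, with a median of −1.65, and with no cell filter 5 were lower and 1 higher, with a median of −0.65. The cholesterol genes counted 8 of 15 lower under both settings, with medians of −4.41 and −4.84, where all genes had −0.11 and −0.02. These values stand beside the lower gene number of the cells of 24 months, whose part was not tested. Fat cell markers counted 0 of 2 in either direction.

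At 24 months against postnatal day 3, 53.6% of all genes were lower. The lists had 11 of 23 adipogenic regulators (47.8%), 9 of 17 genes of uptake and carriage (52.9%) and 3 of 7 droplet genes (42.9%) lower. These shares were near or under that of all genes. Above it were 12 of 15 fatty acid and triglyceride genes (80%) and 13 of 16 cholesterol genes (81.2%). Of 3 fat cell markers 1 was lower (Lipe), and 1 regulator was higher. With no cell filter the lower genes were 7 of 15 for fatty acids and triglycerides and 14 of 15 for cholesterol, against 36% of all genes. The medians of these lists were then −0.22 and −4.41 on the log2 scale, where all genes had −0.16. With cells of at least 500 genes, 8 of 26 regulators were lower and 3 higher, with a median of 0.41, where all genes had −0.23. Fdps, Sqle, Dgat1, the last enzyme of triglyceride synthesis, and Srebf1, a regulator of fatty acid genes, had no read at 24 months. They stood at 166.9, 155.1, 83.9 and 87 CPM at postnatal day 3, in 20, 13, 14 and 12 of 68 cells.

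At postnatal day 3 against 2 months the lists went both ways. Of 25 regulators, 8 were higher and 3 lower. Among the higher were Ebf2, a factor of fat cell precursors (36.7 against 0.415 CPM), Dlk1, an inhibitor of fat cell formation (20.4 against 0.228 CPM), and the growth factor gene Bmp4 (17.6 against 0.824 CPM), and Stat5a was lower (0.663 against 202.8 CPM). Dlk1 was read in 48 of 68 cells at postnatal day 3, with 1542 reads in all, and in 3 cells at 2 months. Ebf2 was read in 3 and Bmp4 in 4 of the 68 cells of postnatal day 3. Of genes of uptake and carriage, 6 of 16 were higher, among them Angptl4, an inhibitor of lipoprotein lipase (86.7 against 1.91 CPM), and the transporter genes Slc27a4 (44.3 against 0.297 CPM) and Slc27a1 (136.6 against 17.9 CPM). Of the same list 3 were lower, among them the sterol exporter gene Abcg1 (0 against 53 CPM). Fatty acid and triglyceride genes counted 5 of 15 higher and 0 lower, cholesterol genes 3 of 16 higher and 1 lower, and droplet genes 1 of 7 each way, with Hilpda higher and Bscl2 lower. Of the 2 fat cell markers that reached 10 CPM, Lipe, hormone-sensitive lipase, was higher (13 against 0.921 CPM) and Car3 lower (0.345 against 519 CPM). These shares stand beside 27.7% higher and 9.98% lower among all genes.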

How the data were processed

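Single cells sorted from long bones were sequenced by SmartSeq2. The authors deposited 1 table of RSEM expected counts per gene symbol. Per the submitters' processing notes, bcl2fastq 2.18, STAR 2.4, RSEM 1.2.21 and GRCm38.p6 were used, and the annotation is not given in the sources used here. Of its values above 0, 15.1% were not whole, so the expected counts as deposited were rounded. The 92 spike-in rows were left out of totals, and 1 of 671 columns matched no sample and was not used. No 2 wells shared an index pair. Passing cells held 62919 to 5994911 gene reads.

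CPM are a gene's share of all gene reads of a plate's passing cells. Plates weigh equally in the value of an age, and a log2 difference compares these means after adding 1 CPM. Since the labels name no animal, an age is 1 sample and no test was made. Shares carry exact Clopper-Pearson intervals and sums exact Poisson intervals, both for counting error only. Beside a count of 0 stands the share that 3 cells would make. The rule was tested on simulated plates that differed by counting error and set changes alone. Real plates of an age differed more, so this does not show how often the rule errs on them.

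The 10 genes, the lists and the markers were chosen with earlier results of these data known. All 10 genes are described. Of each list, up to 4 genes with the largest change among those meeting the rule could be named (1 of these genes is not reported here), and for genes read in at least 20 cells of plates 3 and 4, the 3 genes with the highest Spearman correlation. The marrow stroma limit and the Cnmd, Bglap and Cxcl12 splits were chosen after values had been seen. Multi-mapping reads were shared out by RSEM, so near-identical copies are uncertain. Software was numpy 2.4.6, scipy 1.17.1, pandas 2.3.3, matplotlib 3.10.9 and Python 3.11.15, with edgeR (TMM) and DESeq2 (size factors) for scaling alternatives alone.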

Additional observations from a re-analysis of the deposited data

Results flagged for a closer look

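Reads of all 10 genes also appeared in the 433 wells that did not pass and that enter no comparison between ages. Apoe had 311106 reads there, in 49 wells, Cebpb 54866 in 21 wells and Cebpd 24208 in 17 wells. Adipoq had 11476 reads in 5 wells, Lpl 10308 in 10 wells and Pparg 7269 in 1 well. Cebpa had 5408 reads in 3 wells, Plin2 2538 in 3 wells and Fabp4 30 in 2 wells.

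For Cebpa, Cebpb, Pparg and Fabp4 these wells held more reads than the passing cells, which held 40319 reads of Cebpb, 7 of Fabp4 and 0 of Pparg. Apoe shows the effect on an age: plate 12 had no Apoe read in its 5 passing cells and 123352 Apoe reads in its other wells. Medag had 2 reads in the wells that did not pass, against 31713 in passing cells.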

How the results depend on the processing

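The counts of genes meeting the rule at postnatal day 3 against 2 months were within 1.5 times their value under every alternative tried, with Medag and Lpl higher and Cebpb, Cebpd and Apoe lower in each. With cells of at least 2000 genes and 200000 reads, 24 months kept 1 cell: at 24 against 2 months 0 genes were higher and 5 lower, at 24 months against postnatal day 3 1 was higher (Apoe) and 4 lower, and the log2 difference of Medag reversed to −3.85 and −7.22 and that of Cebpd from postnatal day 3 to −5.39. Against postnatal day 3, cells of at least 500 genes and no cell filter each gave 4 higher genes (Cebpb, Cebpd, Apoe and Adipoq, without Medag, at 0.69 and 0.53). TMM scaling gave 1 lower gene (Cebpd) at 24 against 2 months. Leaving out 1 plate gave 1 to 2 higher and 0 to 1 lower genes at 24 against 2 months, and 2 to 4 higher and 0 to 1 lower at 24 months against postnatal day 3, with the extremes without plate 2 (and 1 lower gene also without plate 1). In an alternative chosen after seeing the data, without the cell with most reads of each gene, the counts were 0 higher at 24 against 2 months and 1 higher (Cebpd) and 1 lower (Lpl) at 24 months against postnatal day 3. The plates of batch 3 gave 2 higher (Cebpd and Medag) and 0 lower. The strict cell filter left fewer cells. What caused the changes under these settings was not tested. No paired analysis was possible because plates carry no shared replicate numbers and no test was made. With 15 cells, a gene read in none at 24 months may still have a read in up to 20% of cells (3 cells), or 21.8% by the exact interval.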
